A study of Mus musculus with 6 samples.

Results

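The extracellular matrix of a tumor is cut by families of metalloproteinases, and a small family of tissue inhibitors, the TIMPs, holds them in check. The genes of these families were taken from the UMI tables of 6 mouse lung tumors by their symbols: the protein-coding genes named Timp, Mmp, Adam, Adamts or Adamtsl with a number. There were 75 such genes among 31130 listed genes, of which 18531 were protein-coding: 4 Timp, 20 Mmp, 27 Adam, 19 Adamts and 5 Adamtsl genes. The study compared tumors of a lung cancer model (LC, n = 3) with tumors that grew in lungs with interstitial pneumonia (IP + LC, n = 3). All hosts were wild-type female C57BL/6 mice of 6 to 8 weeks. Cells of the mouse line Lewis lung carcinoma (LLC), which carried green fluorescent protein, were placed in the left lung of every mouse on day 14, together with a basement membrane extract that is itself a matrix. In the IP + LC model, bleomycin, which injures the lung and leaves fibrosis, had been given through the oropharynx at 2.0 mg/kg on day 0, whereas LC mice had received no bleomycin. Tumor tissue was collected on day 21. The tumors analysed here rest on 1 cell line, and no lung with bleomycin alone was analysed here.

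Matrix metalloproteinases (MMPs) are zinc proteases that are made as inactive precursors. Some are secreted, and the membrane-type enzymes stay on the cell surface. ADAM proteases sit in the membrane and release the outer domains of cytokines, growth factors and receptors. ADAMTS proteases are secreted and cut proteoglycans and procollagens. The ADAMTS-like (Adamtsl) proteins have the ancillary domains of that family without the protease domain. Each TIMP blocks the active site of MMPs, and they differ in reach, since TIMP3 also blocks several ADAM and ADAMTS enzymes and TIMP1 is a poor inhibitor of most membrane-type MMPs. In the lung, these genes are known from scarring, from emphysema and from the invasion of tumors. The RNA measures below are transcript levels and say nothing of the activity of an enzyme, which also depends on activation of the precursor.

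The libraries held 592733 to 1631066 UMIs, of which 0.1535% to 0.2043% belonged to the 75 genes. LC replicate 1 was the smallest library and stood apart from its group. Across genes, its log2 levels correlated at 0.840 and 0.799 with the other LC tumors, which correlated at 0.962 with each other, and at 0.796 to 0.822 with the IP + LC tumors. Mitochondrial transcripts took 3.84% of its UMIs, 9.38% and 12.0% in the other LC tumors and 4.40% to 8.32% in the IP + LC tumors. The labels give the cell type as lung cancer cells, yet lung epithelial transcripts were abundant. Secretoglobin Scgb1a1 averaged 41460 CPM (UMIs scaled to a common library size) in LC and 4454 CPM in IP + LC tumors, so the tissue was not of cancer cells alone. In such bulk samples, fewer cells of a type and less RNA per cell cannot be told apart. The labels number the samples of a group without naming separate animals, and p-values measure the spread between these samples.

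Of the 75 genes, 35 had enough UMIs to be tested, and 20 of these differed between IP + LC and LC tumors, 10 higher and 10 lower. The test was edgeR's quasi-likelihood test over 11240 genes with a Benjamini-Hochberg adjusted p below 0.1. By this test 36.4% of all tested genes differed, 16.8% higher and 19.6% lower in IP + LC tumors. The IP + LC values lay above all LC values for 9 members and below them for 10, against 21.6% and 21.5% of all tested genes. The median log2 fold change of the 35 members was -0.50, beside 0.02 over all tested genes. A total of 7 of the called genes cleared the filter on low counts through the group in which they were high, so their difference is in part built in. They were Mmp13, Mmp25, Adamts4 and Adamts14 in IP + LC tumors, and Adamts8, Adamtsl2 and Adamtsl5 in LC tumors. The counts depended on single tumors. Leaving out LC replicate 1 gave 14 higher and 19 lower members. Without LC replicate 2, 6 were higher and 5 lower, and without LC replicate 3, 9 and 5. Without IP + LC replicate 1, 8 were higher and 4 lower, and without IP + LC replicate 2, 6 and 4. A group of 9 members were called whichever tumor was left out: Mmp14, Mmp15, Mmp25, Adam17, Adamts4, Adamts5, Adamts10, Adamts14 and Adamtsl5. For Mmp25, Adamts4, Adamts14 and Adamtsl5 among them, the difference is in part built in by the filter.

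**Figure D1:**
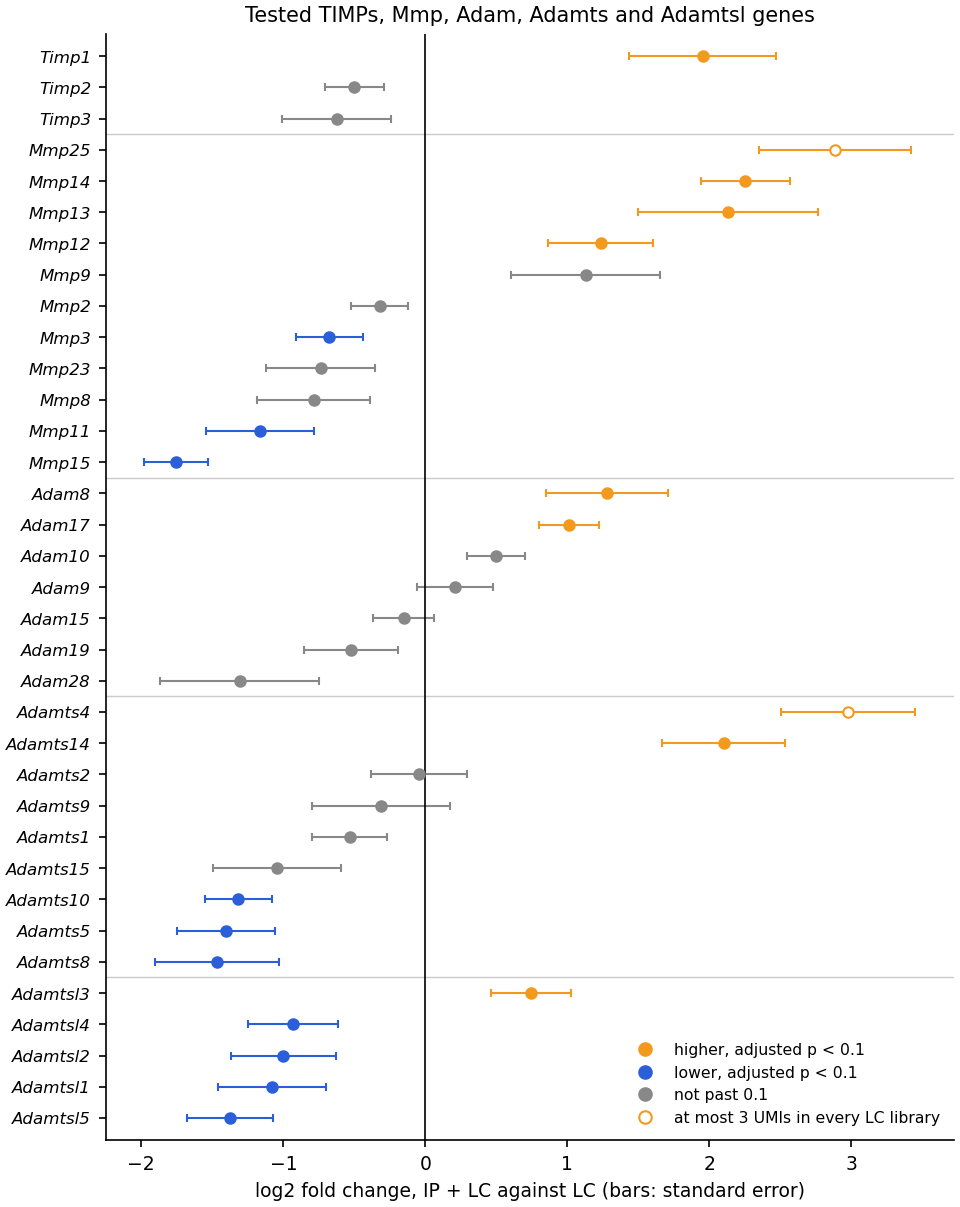
The log2 fold change of IP + LC over LC tumors is plotted for the 35 tested members, by family, with bars of 1 standard error; color marks the 10 higher, the 10 lower and the 15 others. Timp1 is the only tested TIMP to the right of 0, and each protease family holds genes on both sides.

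The regions around the transcription start are printed for 4 members, because Timp1 and Mmp14 rose together at high UMI counts and because Mmp13 and Mmp3, of the same cluster of Mmp genes on chromosome 9, differed in opposite directions. They are the RefSeq start regions of build GRCm38.p6, 250 bases before to 50 bases after the start, read 5′ to 3′. Capitals mark matches to TGAGTCA or TGACTCA, consensus letters of AP-1, and to ACGTG or GCGTG, the core of the hypoxia response element. Each was searched on both strands, and other forms of the AP-1 site were not searched.
Timp1 (chrX:20869916-20870215, plus strand): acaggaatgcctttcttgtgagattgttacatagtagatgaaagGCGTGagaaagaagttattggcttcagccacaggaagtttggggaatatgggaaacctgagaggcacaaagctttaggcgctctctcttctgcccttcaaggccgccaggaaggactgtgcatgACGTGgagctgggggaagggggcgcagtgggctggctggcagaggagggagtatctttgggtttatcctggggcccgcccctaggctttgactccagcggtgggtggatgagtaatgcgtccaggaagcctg
Mmp14 (chr14:54431348-54431647, plus strand): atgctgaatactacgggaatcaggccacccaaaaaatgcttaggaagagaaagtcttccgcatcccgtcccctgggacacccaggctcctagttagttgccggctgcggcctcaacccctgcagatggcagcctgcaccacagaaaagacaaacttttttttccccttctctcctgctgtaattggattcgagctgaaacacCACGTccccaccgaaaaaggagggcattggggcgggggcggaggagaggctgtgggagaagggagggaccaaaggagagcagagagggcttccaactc
Mmp13 (chr9:7272264-7272563, plus strand): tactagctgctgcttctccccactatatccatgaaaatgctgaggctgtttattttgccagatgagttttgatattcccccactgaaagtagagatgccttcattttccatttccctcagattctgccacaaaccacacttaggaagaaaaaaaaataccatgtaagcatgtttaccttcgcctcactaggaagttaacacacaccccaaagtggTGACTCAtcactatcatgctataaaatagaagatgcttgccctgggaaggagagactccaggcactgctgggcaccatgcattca
Mmp3 (chr9:7445572-7445871, plus strand): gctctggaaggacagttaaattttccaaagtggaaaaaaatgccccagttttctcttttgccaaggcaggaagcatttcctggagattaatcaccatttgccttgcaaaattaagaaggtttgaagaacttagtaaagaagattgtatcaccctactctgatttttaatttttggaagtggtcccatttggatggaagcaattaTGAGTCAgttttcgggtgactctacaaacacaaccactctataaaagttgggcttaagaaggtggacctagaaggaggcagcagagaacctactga
The Timp1 region held the hypoxia response core at 206 and 82 bases before the start and no match to TGAGTCA or TGACTCA. Near its end it reads tgagtaa, 1 letter from TGAGTCA, a form that the search did not cover. Mmp14 held 1 core, on the other strand, 48 bases before the start. The Mmp13 and Mmp3 regions each held 1 AP-1 match, 35 and 46 bases before the start, although Mmp13 was higher and Mmp3 lower in IP + LC tumors. Over all 32851 regions of the table, 5.20% held an AP-1 match and 43.8% a core. Of the regions of members that were higher, 2 of 10 held an AP-1 match and 5 of 10 a core. Of those that were lower, 1 of 6 and 2 of 6 did, of those tested and not called 1 of 13 and 9 of 13, and of those not tested 3 of 21 and 10 of 21. The table had an entry for 46 of the 75 genes. Such a match of letters is a description and does not show a bound factor.

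Timp1 rose in IP + LC tumors, and Timp2 and Timp3 did not pass the test, Timp2 narrowly. Timp1 (ENSMUSG00000001131, chrX:20870166-20874735 of GRCm38) lies on the plus strand inside an intron of Syn1, with no exon overlap, and encodes a secreted inhibitor of most soluble MMPs. Its level was 174, 51.7 and 38.1 CPM in LC replicates 1 to 3 and 382, 368 and 228 CPM in IP + LC replicates 1 to 3. All IP + LC tumors lay above all LC tumors, and LC replicate 1 came nearest to them. The UMIs behind these values were 101, 66 and 45 in LC and 527, 630 and 314 in IP + LC tumors. Its log2 fold change was 1.95 ± 0.52 (SE; edgeR adjusted p = 0.0233, n = 3 and 3). Leaving out LC replicate 1 gave 2.86 (edgeR adjusted p = 3.93e-07), and without LC replicate 2 it was 1.67 and no longer past the limit (edgeR adjusted p = 0.102). The summed macrophage markers had a higher mean in IP + LC tumors, with 3 of 7 markers called higher. They were at 2301, 840 and 606 CPM in LC and 2235, 2819 and 2557 CPM in IP + LC replicates 1 to 3. These groups overlapped at LC replicate 1, and the lowest IP + LC sum was in replicate 1, where Timp1 was highest. The 6 alveolar macrophage markers went the other way, at 1567 to 1978 CPM in LC and 212 to 437 CPM in IP + LC tumors, with 6 called lower. The 5 proliferation markers were higher along with Timp1, at 467, 103 and 97.5 CPM in LC and 832 to 973 CPM in IP + LC tumors, with 4 of 5 called higher. The 6 fibroblast markers summed to 1505 to 1938 CPM in LC and 1629 to 1748 CPM in IP + LC tumors, with 2 called higher and 3 lower. Their part in the Timp1 difference was not tested.

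**Figure D2:**
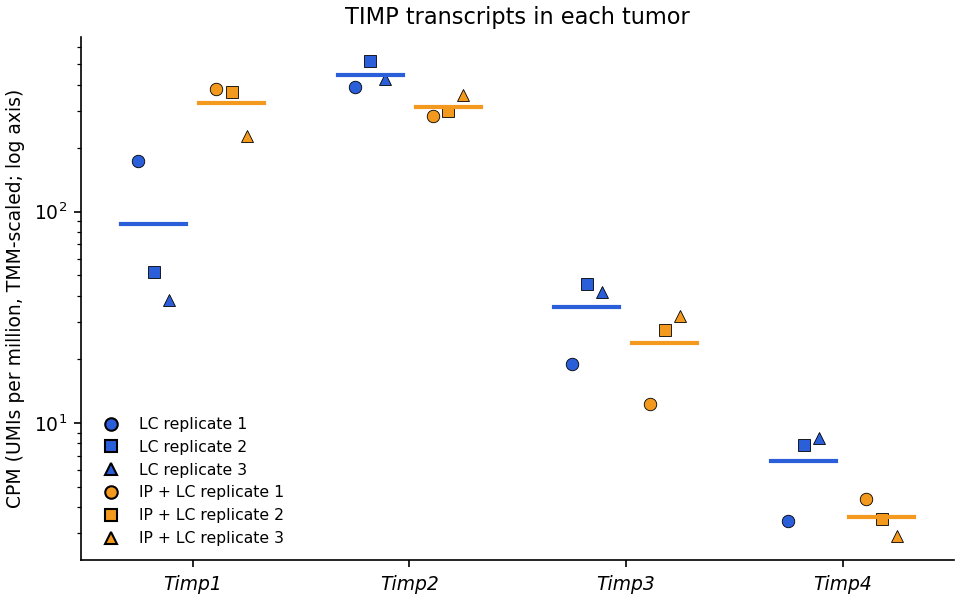
The level of each TIMP gene is plotted for every tumor in TMM-scaled CPM on a log axis, with blue for LC, orange for IP + LC, a shape for each replicate and a line for the group mean. Timp1 is higher in every IP + LC tumor, whereas Timp2 is lower in each of them.

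Timp2, whose protein both inhibits MMPs and helps MMP14 to activate the precursor of MMP2, was the most abundant TIMP transcript of the LC tumors. It measured 389, 519 and 423 CPM in LC and 284, 299 and 359 CPM in IP + LC tumors. Every IP + LC tumor lay below every LC tumor, but the change of -0.50 ± 0.21 did not pass the limit (edgeR adjusted p = 0.105). With LC replicate 1 left out it was -0.58 and did (edgeR adjusted p = 0.00414). It also passed, between 0.0794 and 0.0978, with DESeq2's size factors, upper quartile scaling, at least 10 UMIs in every library, or voom. Timp3, the matrix-bound TIMP, had 18.9, 45.4 and 41.5 CPM in LC and 12.3, 27.4 and 32.0 CPM in IP + LC tumors. These ranges overlapped, and the change was -0.63 ± 0.39 (edgeR adjusted p = 0.261), or -0.84 without LC replicate 1 (edgeR adjusted p = 0.0239). Timp3 lies within Syn3 on the opposite strand and shares 21.3% of its exonic bases with it. The strand setting of the counting was not given in the sources used here, so reads of the pair may not be separable. Timp4 had 2 to 10 UMIs in each tumor and was not tested. An oligo-dT UMI marks a molecule once whatever its length, so CPM were compared between genes without division by length. By mean level, the order in LC tumors was Timp2, Timp1, Timp3 and Timp4, with the ranges of Timp1 and Timp3 overlapping. In IP + LC tumors it was Timp1, Timp2, Timp3 and Timp4, and the ranges of Timp1 and Timp2 overlapped.

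The make-up of the TIMP transcripts shifted accordingly. Timp1 was 29.7% (95% Wilson interval 25.1 to 34.8), 8.28% (6.56 to 10.4) and 7.46% (5.62 to 9.84) of all Timp UMIs in LC replicates 1 to 3. In IP + LC replicates 1 to 3 it was 55.9% (52.8 to 59.1), 52.7% (49.8 to 55.5) and 36.7% (33.5 to 40.0). The intervals cover counting error only. The means were 15.2 ± 12.6% and 48.4 ± 10.3% (SD, n = 3 each). The spread within LC was thus wide and came from replicate 1, yet the groups did not overlap.

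**Figure D3:**
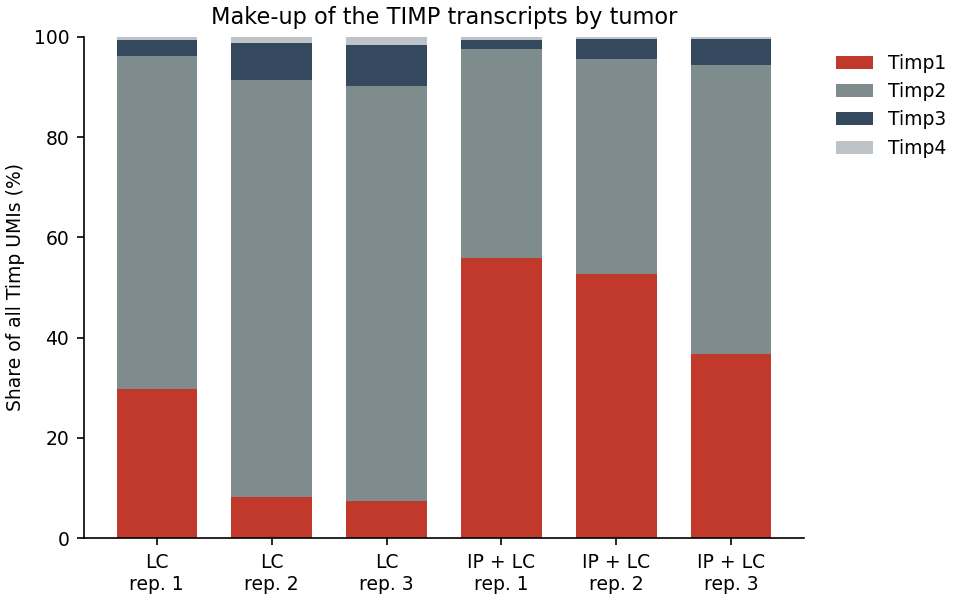
Stacked bars give each TIMP gene's share, in percent, of all Timp UMIs in each of the 6 tumors. The Timp1 share is at most 29.7% in LC tumors and at least 36.7% in IP + LC tumors, and Timp2 makes up most of the rest.

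A ratio within a library needs no scaling between libraries, and it set the change of Timp1 directly beside that of the other TIMPs. The log2 ratio of Timp1 to Timp2 UMIs was -1.16, -3.32 and -3.46 in LC and 0.43, 0.30 and -0.65 in IP + LC tumors. The groups did not overlap, and the difference of 2.67 was a 6.35-fold higher ratio (two-sided exact permutation p = 0.1, the smallest that 3 against 3 tumors allow; 0.233 adjusted over 7 ratios). Without LC replicate 1 the difference was 3.41, and without any other tumor it was 2.26 to 3.01. The log2 ratio of Timp1 to Timp3 averaged 1.07 ± 1.80 in LC and 3.82 ± 1.05 in IP + LC tumors. These groups overlapped, since LC replicate 1 reached 3.14 and IP + LC replicate 3 only 2.82 (exact permutation p = 0.2, 0.28 adjusted). The difference of 2.75 was 3.79 without LC replicate 1 and 2.16 without LC replicate 3.

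Set against the summed MMPs, the mean of Timp1 was higher in IP + LC tumors and that of all TIMPs together was lower, both with overlap between the groups. The log2 ratio of Timp1 to all Mmp UMIs was -1.02, -2.67 and -3.49 in LC and -0.56, -0.64 and -1.15 in IP + LC tumors, a difference of 1.61 with overlap at LC replicate 1, and of 2.30 without that tumor. The summed Timp to Mmp ratio averaged 0.62 ± 0.34 in LC and 0.29 ± 0.01 in IP + LC tumors (exact permutation p = 0.4, 0.467 adjusted). Its values in LC replicates 1 to 3 were 0.72, 0.91 and 0.24, and LC replicate 3 lay below every IP + LC tumor. With Mmp14 left out of the sum the difference turned from -0.34 to 0.39. For Timp to Adam it was -0.06, well within the spread, and it turned positive without LC replicate 2 (0.05) or IP + LC replicate 3 (0.01). The summed Timp to Adamts ratio was 1.28 ± 0.53 in LC and 1.95 ± 0.14 in IP + LC tumors without overlap (exact permutation p = 0.1, 0.233 adjusted). Its LC values were 1.72, 1.43 and 0.68, so the size of the difference leaned on LC replicate 3. In CPM, the Mmp sum was 332 to 432 in LC and 507 to 572 in IP + LC tumors. Without Mmp14, a sum added after seeing the data, it was 281 to 354 and 260 to 331 CPM, which overlapped. The Adam sum was 367 to 425 and 455 to 490 CPM. By contrast, the Adamtsl sum was lower, at 79.2 to 104 CPM in LC and 57.2 to 72.5 CPM in IP + LC tumors. The Adamts sums overlapped, at 177 to 318 and 163 to 178 CPM.

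Among the membrane-type MMPs, Mmp14 and Mmp25 were higher and Mmp15 was lower in IP + LC tumors. Mmp14 (chr14:54431612-54445364, plus strand) encodes a surface collagenase that activates the MMP2 precursor. It measured 31.0, 51.7 and 78.0 CPM in LC and 231, 312 and 243 CPM in IP + LC tumors. The lowest IP + LC tumor was far above the highest LC tumor. Its log2 fold change of 2.25 ± 0.31 was called (edgeR adjusted p = 0.00175), and the IP + LC mean of 262 CPM made it the most abundant of the tested Mmp, Adam and Adamts transcripts in that group. Mmp15 (chr8:95352268-95375080, plus strand), a close relative on the cell surface, moved the other way. It measured 65.4, 59.5 and 53.4 CPM in LC and 13.8, 18.1 and 20.3 CPM in IP + LC tumors, a change of -1.75 ± 0.23 (edgeR adjusted p = 0.00138). The groups were again well apart. Lung epithelial markers were lower along with Mmp15, with the 5 type 2 alveolar markers at 33790 to 41890 CPM in LC and 5826 to 10820 CPM in IP + LC tumors, 4 of them called lower. Endothelial markers were too, at 942 to 1677 and 354 to 443 CPM with 6 of 6 called lower, and their part in the result was not tested. Mmp25, a lipid-anchored MMP known from neutrophils, had 0, 2 and 2 UMIs in LC and 16, 18 and 12 UMIs in IP + LC tumors. Against a floor of 3 UMIs in each LC library it was at least 3.06-fold higher (edgeR adjusted p = 0.00558). Mmp25 cleared the filter on low counts through the IP + LC tumors, so this difference is in part built in. The sum of 5 neutrophil markers went the opposite way, at 797 to 1923 CPM in LC and 145 to 318 CPM in IP + LC tumors, with 3 called lower. Csf3r (-0.23, edgeR adjusted p = 0.653) and Cxcr2 (-0.29, 0.663) were not called.

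**Figure D4:**
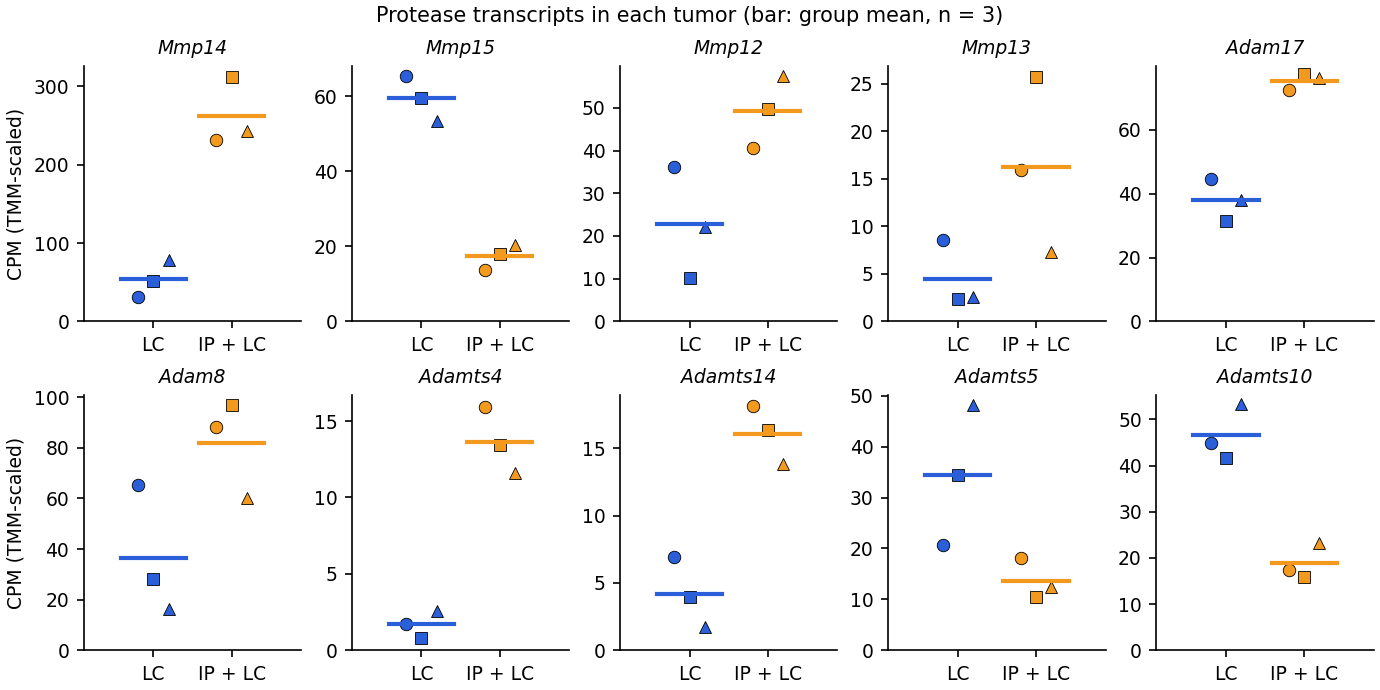
Each panel plots 1 protease gene in TMM-scaled CPM, with a point for every LC (blue) and IP + LC (orange) tumor, the same shapes for the same replicate numbers and a line at the group mean. The groups are apart in every panel but those of Mmp13 and Adam8, where LC replicate 1 lies above IP + LC replicate 3.

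The secreted MMPs were divided. Mmp12, the elastase of macrophages, was at 36.2, 10.2 and 22.0 CPM in LC and 40.6, 49.6 and 57.4 CPM in IP + LC tumors. The groups did not overlap, with LC replicate 1 close to the IP + LC range, and the log2 fold change was 1.23 ± 0.37 (edgeR adjusted p = 0.0372). It was not called without LC replicate 2 (0.127), IP + LC replicate 2 (0.121) or IP + LC replicate 3 (0.12, all edgeR adjusted p). The macrophage marker sums given beside Timp1 were likewise highest in LC replicate 1 within LC, the alveolar macrophage markers were lower in IP + LC tumors, and their part in this result was not tested. Mmp13, a collagenase, had 5, 3 and 3 UMIs in LC and 22, 44 and 10 UMIs in IP + LC tumors. In CPM these overlapped, at 8.61 in LC replicate 1 and 7.26 in IP + LC replicate 3, and the change was 2.13 ± 0.63 (edgeR adjusted p = 0.0355). It was 2.74 without LC replicate 1 and lost its call without LC replicate 2 (0.16), LC replicate 3 (0.127) or IP + LC replicate 2 (0.161). Mmp13 cleared the filter on low counts through the IP + LC tumors, so its difference is in part built in. Mmp9, the gelatinase of neutrophils and macrophages that TIMP1 binds as a precursor, was at 24.1, 25.1 and 33.1 CPM in LC and 118, 39.7 and 26.1 CPM in IP + LC tumors. A single tumor carried most of that difference: the log2 fold change of 1.13 (edgeR adjusted p = 0.142) was 0.28 without IP + LC replicate 1. It passed the limit without LC replicate 1 (0.0804) or IP + LC replicate 3 (0.0626). With scaling by library size only (0.0836) or without the filter on low counts (0.000297), it passed as well.

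Mmp11 and Mmp3 were lower. Mmp11, a stromelysin that furin activates inside the cell, was at 67.2, 23.5 and 48.3 CPM in LC and 18.1, 15.8 and 25.4 CPM in IP + LC tumors, with overlap at LC replicate 2. Its change was -1.16 ± 0.38 (edgeR adjusted p = 0.0492), and it lost the call without LC replicate 3 (0.129), IP + LC replicate 1 (0.152) or IP + LC replicate 2 (0.185). Mmp3, the stromelysin that activates other MMP precursors, was at 36.2, 59.5 and 55.1 CPM in LC and 34.1, 28.6 and 34.1 CPM in IP + LC tumors. The groups did not overlap, but LC replicate 1 lay close by, and the change was -0.68 ± 0.23 (edgeR adjusted p = 0.0606). Without any tumor other than LC replicate 1 the adjusted p of Mmp3 was 0.139 to 0.244. Both genes share stretches of near-identical transcript with other genes, over 23.3% of a transcript for Mmp11 and 22.9% for Mmp3, so their counts may be incomplete. The 3 other tested secreted or shed MMPs did not pass the limit. They were Mmp2, the gelatinase activated by MMP14, at -0.32 (edgeR adjusted p = 0.271), Mmp8, the neutrophil collagenase, at -0.79 (0.175), and Mmp23 at -0.74 (0.186). Mmp2 was nevertheless lower in every IP + LC tumor, at 42.0 to 46.5 CPM against 49.2 to 65.4 CPM. Mmp8 (0.0251) and Mmp23 (0.0434) passed without LC replicate 1.

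Of 7 tested ADAM genes, 2 rose and none fell, which is 28.6% called beside 36.4% of all tested genes. Adam17, the sheddase that releases tumor necrosis factor and ligands of the epidermal growth factor receptor, was at 44.8, 31.3 and 38.1 CPM in LC and 72.5, 77.6 and 76.2 CPM in IP + LC tumors. The IP + LC values lay close together and above every LC value. Its log2 fold change was 1.01 ± 0.21 (edgeR adjusted p = 0.00864). Adam8, a surface protease of leukocytes, was at 65.4, 28.2 and 16.1 CPM in LC and 88.5, 96.9 and 60.3 CPM in IP + LC tumors. These overlapped, since LC replicate 1 exceeded IP + LC replicate 3, and the change was 1.28 ± 0.43 (edgeR adjusted p = 0.0549). Without LC replicate 1 it was 1.89 (edgeR adjusted p = 4.73e-05), and the call was lost without any other single tumor but IP + LC replicate 3 (0.147 to 0.201). Like Timp1, Adam8 was highest among LC tumors in replicate 1, the LC tumor with the highest sum of the general macrophage markers but the lowest of the alveolar macrophage markers, and their part in the Adam8 result was not tested.

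Adam10, the sheddase of Notch and cadherins, was by group mean the most abundant ADAM transcript tested. In LC replicate 1, however, Adam9 was higher, at 105 CPM. Adam10 was at 86.1, 94.0 and 120 CPM in LC and 139, 132 and 156 CPM in IP + LC tumors. All IP + LC values were higher, yet its change of 0.50 missed the limit (edgeR adjusted p = 0.106). It passed without LC replicate 1 (0.0358) or LC replicate 3 (0.0795), and with scaling by library size only (0.0405) or voom (0.0823). The other tested ADAM genes were Adam9 at 0.21 (edgeR adjusted p = 0.595), Adam15 at -0.15 (0.631), Adam19 at -0.52 (0.274) and Adam28 at -1.31 (0.116). Without LC replicate 1, Adam9 (0.038), Adam19 (0.0403) and Adam28 (0.00238) passed. Adam28 was at 3.44, 22.7 and 22.9 CPM in LC and 3.50 to 10.9 CPM in IP + LC tumors, so LC replicate 1 alone brought its groups to overlap. For Adam15, 60.3% of a transcript is shared with another gene.

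In the ADAMTS family, Adamts4 and Adamts14 were higher and Adamts5, Adamts8 and Adamts10 lower. Adamts4 and Adamts14 cleared the filter on low counts through the IP + LC tumors and Adamts8 through the LC tumors. The differences of these genes are therefore in part built in. Adamts4 and Adamts5 are the main aggrecan-cutting enzymes and went in opposite directions. Adamts4 (chr1:171250421-171260637) had 1, 1 and 3 UMIs in LC and 22, 23 and 16 UMIs in IP + LC tumors, at least 4.08-fold higher against the floor of 3 UMIs (edgeR adjusted p = 0.00303). Adamts5 was at 20.7, 34.5 and 48.3 CPM in LC and 18.1, 10.5 and 12.3 CPM in IP + LC tumors, a change of -1.40 ± 0.35 (edgeR adjusted p = 0.0178). Its groups did not overlap, although LC replicate 1 came near. In LC tumors Adamts5 was thus far above Adamts4, while in IP + LC tumors their ranges overlapped, at 10.5 to 18.1 and 11.6 to 16.0 CPM. Adamts14 (chr10:61197112-61273438), a procollagen N-proteinase, had 4, 5 and 2 UMIs in LC and 25, 28 and 19 UMIs in IP + LC tumors. That was 6.89, 3.92 and 1.70 against 18.1, 16.3 and 13.8 CPM, a change of 2.10 ± 0.43 (edgeR adjusted p = 0.00864). Among fibroblast markers, its substrate gene Col1a1 and also Col1a2 were called higher, beside 3 called lower. Adamts2, the related N-proteinase, did not pass the limit (-0.04, edgeR adjusted p = 0.943).

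Adamts10, which associates with fibrillin microfibrils, was at 44.8, 41.5 and 53.4 CPM in LC and 17.4, 15.8 and 23.2 CPM in IP + LC tumors. The gap between the groups exceeded the range within either, and the change was -1.32 ± 0.24 (edgeR adjusted p = 0.00512). Adamts8, a member known as abundant in lung, was at 8.61, 11.0 and 13.6 CPM in LC and 3.63, 2.34 and 6.54 CPM in IP + LC tumors. It changed by -1.47 ± 0.44 (edgeR adjusted p = 0.0355) and lost the call without LC replicate 2 (0.112), LC replicate 3 (0.129), IP + LC replicate 1 (0.143) or IP + LC replicate 2 (0.176). Adamts1, Adamts9 and Adamts15, which cut versican and aggrecan, were at -0.53 (edgeR adjusted p = 0.165), -0.31 (0.669) and -1.04 (0.118). Adamts1 (0.00804) and Adamts15 (0.004) passed without LC replicate 1. Smooth muscle markers, at 728 to 1147 CPM in LC and 207 to 291 CPM in IP + LC tumors, were lower alongside, with 5 of 5 called, and their part was not tested.

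All 5 Adamtsl genes were tested, and 4 fell while 1 rose, beside 19.6% lower and 16.8% higher among all tested genes. Adamtsl5, a secreted protein of microfibrils, was at 25.8, 29.0 and 22.9 CPM in LC and 12.3, 7.0 and 10.9 CPM in IP + LC tumors, a change of -1.38 ± 0.30 (edgeR adjusted p = 0.0110). Its groups were well apart. Adamtsl5 and also Adamtsl2 cleared the filter on low counts through the LC tumors, so their differences are in part built in. Adamtsl1 (-1.08, edgeR adjusted p = 0.0648), Adamtsl2, a binder of fibrillin and latent growth factor complexes (-0.999, 0.0749), and Adamtsl4, a microfibril protein of the lens and other tissues (-0.93, 0.0577), lay nearer to the limit. Adamtsl3 was the exception, at 10.3, 14.9 and 19.5 CPM in LC and 28.3, 22.8 and 27.6 CPM in IP + LC tumors (0.75, edgeR adjusted p = 0.0791). These 4 calls near the limit were fragile. Adamtsl1 and Adamtsl4 were lost without any single tumor but LC replicate 1 (adjusted p 0.176 to 0.226 and 0.102 to 0.189). Adamtsl2 was lost without LC replicate 2 (0.309), IP + LC replicate 1 (0.182) or IP + LC replicate 2 (0.276). Adamtsl3 was lost without LC replicate 2 (0.213) or any IP + LC tumor (0.129 to 0.184). For Adamtsl4, 30.3% of a transcript is shared with another gene.

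The remaining 40 genes had too few UMIs to be tested: 1 Timp, 9 Mmp, 20 Adam and 10 Adamts genes. Only 2 of them, Adamts13 and Adamts16, had no UMI in any tumor, where a count of 0 allows up to 5.17 CPM in LC replicate 1 and 1.75 to 2.54 CPM in the other tumors. The highest count among the 40 was 32 UMIs, of Adam23 in LC replicate 3. The 3 untested genes that follow averaged 10 CPM or more in LC tumors, and all of them were led by that tumor. Mmp16, a membrane-type MMP, had 0, 7 and 31 UMIs in LC and 5, 3 and 2 UMIs in IP + LC tumors. Adam22 had 2, 20 and 24 against 9, 2 and 8 UMIs, and Adam23 had 0, 8 and 32 against 1, 10 and 4 UMIs, both of them ADAMs without protease activity that are known from the nervous system.

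Genes that work with these proteases were read from a list of 44, of which 43 were in the tables and 29 were tested. Of these, 7 rose and 6 fell (44.8% of 29, beside 36.4% of all genes). Plau, the urokinase that generates plasmin, rose most, at 17.2, 24.3 and 12.7 CPM in LC and 90.6, 114 and 79.2 CPM in IP + LC tumors (2.37, edgeR adjusted p = 0.0012). Its receptor gene Plaur averaged 41.1 ± 3.69 and 85.6 ± 17.6 CPM (SD, n = 3 each; 1.06, edgeR adjusted p = 0.0107). The groups of tumors were apart for both genes. Reck, a membrane-anchored inhibitor of MMPs outside the TIMP family, fell most, at 10.3, 32.1 and 23.7 CPM in LC and 4.35, 5.84 and 2.90 CPM in IP + LC tumors (-2.38, edgeR adjusted p = 0.0061). It cleared the filter on low counts through the LC tumors, so this difference is in part built in.

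For the sheddases, Rhbdf2, whose product brings ADAM17 to the cell surface, rose by 0.86 on the log2 scale (edgeR adjusted p = 0.0991), and Tspan15, a tetraspanin partner of ADAM10, fell from a mean of 43.7 ± 20.8 to 14.3 ± 2.52 CPM (-1.69, edgeR adjusted p = 0.0101). Furin, the convertase that activates MMP14, ADAM and ADAMTS precursors, averaged 61.7 ± 29.9 CPM in LC and 115 ± 13.7 CPM in IP + LC tumors (0.86, edgeR adjusted p = 0.0784). Pcolce2, an enhancer of procollagen C-proteinase, fell from 314 ± 151 to 75.3 ± 15.9 CPM (-2.07, edgeR adjusted p = 0.00567). Cd44, a docking site for MMP9 and MMP14 (0.84, 0.0739), and the cathepsins Ctss (0.88, 0.09) and Ctsb (0.71, 0.0592) rose. Bsg, the inducer of MMPs known as basigin (-0.65, 0.034), the proteoglycan Spock2 (-0.89, 0.0274) and the cathepsin inhibitor Cst3 (-0.65, 0.0448) fell, all by the edgeR adjusted p. Plau, Plaur, Pcolce2, Tspan15 and also Reck, whose difference is in part built in, were called whichever tumor was left out, and the other 8 lost their call without at least 1 tumor, with a highest adjusted p of 0.122 for Spock2 to 0.277 for Rhbdf2.

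**Figure D5:**
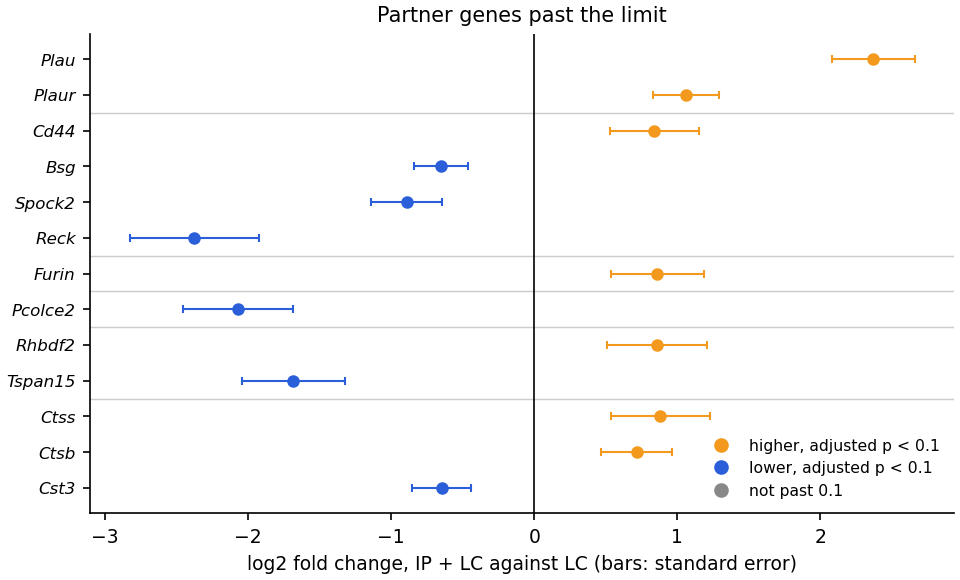
The log2 fold change of IP + LC over LC tumors is plotted for the 13 partner genes past the limit (7 higher, 6 lower) with bars of 1 standard error, grouped from top to bottom as plasminogen activation, membrane and secreted regulators, proprotein convertases, procollagen C-proteinases, sheddase partners, and cathepsins with their inhibitor. Plau lies farthest to the right, at 2.37, and Reck farthest to the left, at -2.38.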

How the data were processed

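RNA of 6 tumors (3 LC, 3 IP + LC, grouped by their titles) was sequenced by the authors as oligo-dT libraries with UMIs. The deposited values are raw counts of UMIs per gene, 1 table per tumor. Per the labels, UMI-tools 1.1.1, Trim Galore 0.6.7, HISAT2 2.2.1 and featureCounts 2.0.1 were used with GRCm38; the annotation release and strand setting are not given in the sources used here. Counting error is that of molecules.

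Genes were kept by filterByExpr (minimum count 10, minimum total 15), which left 11240. Counts were scaled by TMM and tested with edgeR 4.0.16 (quasi-likelihood, no block, R 4.3.3) between IP + LC and LC over all kept genes, with Benjamini-Hochberg adjustment and a limit of 0.1. CPM are TMM-scaled and SDs are over 3 tumors. Ratios added 0.5 UMIs to each term and were compared by exact permutation. Alternatives used DESeq2 1.42.0, limma 3.58.1 (voom), 3 other scalings, 2 other filters, a limit of 0.05, counts thinned to 592733 UMIs (seed 1), a replicate block and each tumor left out. The procedure was checked on simulated counts.

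Named were the TIMPs, members past the limit, proteases averaging at least 10 CPM in either group, and partner genes past the limit, the 10 largest with values. The members and lists were chosen with earlier results of these data known. Coordinates come from GENCODE M21 on GRCm38, and start regions from RefSeq. A planned search of protein sequences was not run. The result of 1 of the 29 tested partner genes is not reported here by itself, and the counts include that gene. Near-identical transcript stretches are blastn matches of at least 81 bases and 95% identity.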

Additional observations from a re-analysis of the deposited data

How the results depend on the processing

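All 20 called members kept their sign under the 3 other scalings, voom called all 20 and DESeq2 called 15. Scaling by library size only moved the median log2 fold change of all genes by 0.16. The 10 higher members became 5 when at least 10 UMIs were required in every library and 5 after thinning, and 6 to 14 with each tumor left out. The 10 lower members became 6 with DESeq2's test, 6 with the replicate block, 4 after thinning and 6 at a limit of 0.05, and 4 to 19 with each tumor left out. The 7 higher partner genes became 11 without the filter, 3 after thinning and 2 at a limit of 0.05, and 2 to 15 with each tumor left out, and the 6 lower ones became 3 to 9. The Timp1 log2 fold change ranged from 1.57 to 2.86 with each tumor left out. The difference in the Timp to Mmp ratio turned to 0.39 without Mmp14, and that in the Timp to Adam ratio, which was -0.20 to 0.0489 with each tumor left out, turned to 0.0271 without Adam10. Of the changes that were not called, Adam15 turned to 0.0032 with library size only, 0.0483 after thinning and 0.0082 without IP + LC replicate 2, the highest of a range from -0.21 with each tumor left out. Adamts2 turned to 0.118 with library size only, 0.0748 without the filter, 0.0447 with voom, 0.104 and 0.184 without LC replicates 1 and 3, and 0.0734 and 0.0138 without IP + LC replicates 2 and 3, within a range of -0.38 to 0.184. Of 496 recomputed fold changes, 402 kept direction and call, 59 lost and 25 gained the call, and 10 reversed. Beyond fewer samples or genes in a fit, the cause was not tested.

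The titles share replicate numbers, but the numbers did not pair the tumors: same-numbered tumors correlated at 0.026, -0.12 and 0.112 in their deviations. With the replicate number as a block, 15 of the 20 members were called, Timp1 was at 2.17 (edgeR adjusted p = 0.0105), and Mmp3, Adamtsl1, Adamtsl2, Adamtsl3 and Adamtsl4 were not called. The depth of LC replicate 1, where 3 UMIs are 5.17 CPM, limits every gene with few UMIs.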
